A study of Homo sapiens with 12 samples.

Results

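The genes described here are 9 cyclins and the cyclin-dependent kinase gene CDK1: the D-type cyclins CCND1, CCND2 and CCND3, the E-type cyclins CCNE1 and CCNE2, CCNA2, CCNF, the B-type cyclins CCNB1 and CCNB2, and CDK1. They were taken by symbol, and each of the 10 matched 1 of the 63677 Ensembl gene IDs in the count table, such as ENSG00000134057 for CCNB1 on chromosome 5, ENSG00000170312 for CDK1 on chromosome 10 and ENSG00000110092 for CCND1 on chromosome 11. The 12 RNA-seq libraries came from LNCaP, an established human prostate cancer line, kept in medium with hormones. The 4 groups of 3 libraries were cells overexpressing USP22, cells with the vector control pLPLUC, cells in which an shRNA (shUSP22-4693) depleted USP22, and cells with a control shRNA. Doxycycline (1 ug/mL, renewed every 48 hours over 5 days) was given to both shRNA groups, and the labels name none for the other groups. Depletion rested on a single shRNA. Whether the replicates came from separate cultures is not in the labels, so the p-values reflect the spread among these libraries alone, and that spread may be technical.

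Cyclins are the regulatory subunits of cyclin-dependent kinases and set when in the cell cycle those kinases act. D-type cyclins respond to growth signals in G1 and, with CDK4 or CDK6, start the phosphorylation of the retinoblastoma protein. Cyclins E and A bind CDK2 around the entry into S phase and through it, and cyclin B with CDK1 drives the entry into mitosis. The mRNAs of cyclins A and B, of CDK1 and of CCNF peak late in the cycle, so in a growing culture their level moves with the share of cells in S phase, G2 and mitosis. USP22 is the ubiquitin protease of the SAGA coactivator complex, and the study's title names cell proliferation as one process it addresses. In a bulk sample, fewer cells in a phase of the cycle and less mRNA per cell in that phase cannot be told apart.

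Late cell cycle genes are known to share promoter elements. The CHR element is bound by MuvB-based complexes (DREAM, and later in the cycle MuvB with B-MYB and FOXM1), and the CCAAT box by NF-Y. The 200 bases before the RefSeq start (GRCh38.p14, gene strand, 5′ to 3′) are shown for the S, G2 and mitotic members with an entry in the table and for CCND3 beside them. Capitals mark the CHR spelling TTTGAA or its variant TTCGAA, the CCAAT box (ATTGG where it lies on the other strand), and the E2F-like spelling TTTGGCG or its variants, which are TTTCCCG and also TTTCGCG, each searched on both strands, with no overlap between the matches.
CCNB1, chr5:69166950-69167149, plus strand: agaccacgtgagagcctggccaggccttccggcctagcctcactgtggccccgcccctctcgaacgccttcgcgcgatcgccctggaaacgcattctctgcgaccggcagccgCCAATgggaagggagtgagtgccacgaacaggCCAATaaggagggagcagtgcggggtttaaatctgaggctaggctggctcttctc
CCNB2, chr15:59104946-59105145, plus strand: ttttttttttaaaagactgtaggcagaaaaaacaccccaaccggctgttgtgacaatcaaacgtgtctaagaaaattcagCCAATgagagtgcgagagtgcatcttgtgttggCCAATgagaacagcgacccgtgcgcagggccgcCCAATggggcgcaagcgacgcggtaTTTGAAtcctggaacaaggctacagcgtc
CDK1, downstream start, chr10:60778278-60778477, plus strand: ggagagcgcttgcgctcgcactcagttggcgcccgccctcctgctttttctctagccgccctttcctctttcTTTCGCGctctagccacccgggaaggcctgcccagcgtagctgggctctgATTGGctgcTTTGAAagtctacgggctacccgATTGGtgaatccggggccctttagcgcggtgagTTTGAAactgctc
CCNF, chr16:2429247-2429446, plus strand: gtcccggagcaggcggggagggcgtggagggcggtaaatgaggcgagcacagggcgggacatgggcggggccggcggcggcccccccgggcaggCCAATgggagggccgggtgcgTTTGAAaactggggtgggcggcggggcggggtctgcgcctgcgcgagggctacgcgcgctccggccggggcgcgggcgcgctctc
CCNA2, chr4:121823884-121824083, minus strand: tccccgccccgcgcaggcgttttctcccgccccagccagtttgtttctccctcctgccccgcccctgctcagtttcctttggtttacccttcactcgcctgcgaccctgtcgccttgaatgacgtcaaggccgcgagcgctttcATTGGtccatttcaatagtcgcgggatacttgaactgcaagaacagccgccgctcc
CCNE1, chr19:29811791-29811990, plus strand: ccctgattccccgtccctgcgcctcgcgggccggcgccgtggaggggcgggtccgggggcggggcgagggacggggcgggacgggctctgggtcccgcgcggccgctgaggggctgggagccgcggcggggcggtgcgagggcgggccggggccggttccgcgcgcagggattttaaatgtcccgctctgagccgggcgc
CCND3, middle start, chr6:41941809-41942008, minus strand: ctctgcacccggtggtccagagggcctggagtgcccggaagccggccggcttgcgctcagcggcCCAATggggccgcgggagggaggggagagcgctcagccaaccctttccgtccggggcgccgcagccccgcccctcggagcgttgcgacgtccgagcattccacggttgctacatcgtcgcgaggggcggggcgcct
CCNB2 held 3 CCAAT boxes and a CHR spelling between 29 and 24 bases before its start. The downstream CDK1 start had 2 CCAAT boxes, 2 CHR spellings and the sole E2F-like match among the members, and the upstream CDK1 start had 1 CCAAT box and 1 CHR spelling. CCNF held 1 of each, CCNB1 2 CCAAT boxes and CCNA2 1 CCAAT box. CCNE1 had no match in this window, and of the 3 CCND3 starts 2 had a CCAAT box and none a CHR spelling. Over all 35116 promoter windows of that length in the table, 11.1% held a CHR spelling, 28% a CCAAT box, 3.48% both and 5.02% an E2F-like spelling. These matches are letters in a window and do not show binding. No other spellings were searched, so a window without a match may still hold such an element in another spelling. In all, 7 of the 10 members had an entry, at 10 starts, and CCND1, CCND2 and CCNE2 had none.

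**Figure D1:**
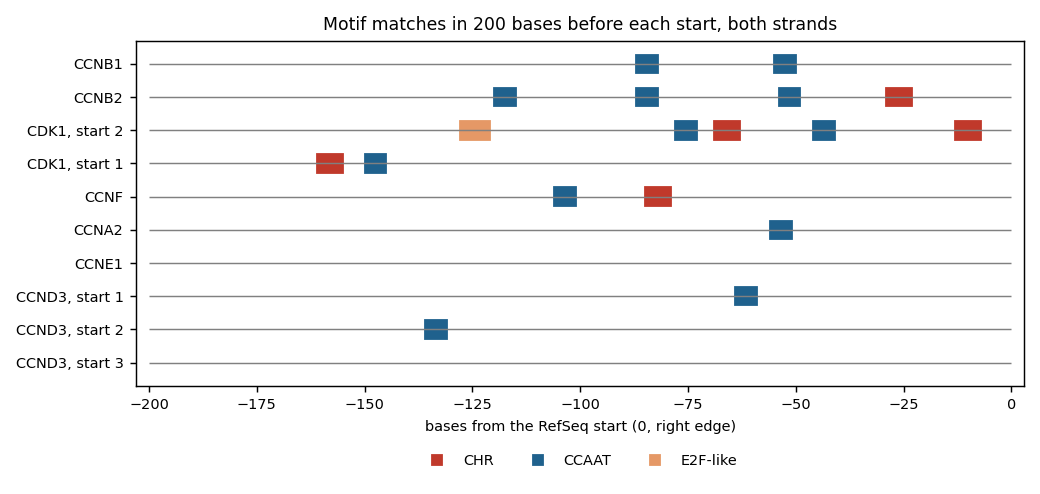
Positions of motif matches in the 200 bases before each RefSeq start of 7 members; the x axis gives bases from the start, and colours mark CHR, CCAAT and E2F-like spellings on either strand. The CHR spellings searched (TTTGAA and TTCGAA) lie in CCNB2, CDK1 and CCNF, and other spellings were not searched. CCNE1 has no match, and CCND3 has a CCAAT box at 2 of its 3 starts and neither CHR spelling.

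The libraries held 77607469 to 103690001 counted reads. USP22 followed the labels: 1498, 1406 and 1495 CPM (counts scaled by library size) after overexpression against 481.6, 490.6 and 565.2 CPM in the vector control, and 256.9, 265.3 and 250.6 CPM after depletion against 479.6, 473.4 and 479.7 CPM in the shRNA control. The 6 markers of luminal prostate and LNCaP cells, KLK3 among them, lay between 134.3 and 1514 CPM in every library, while KRT5 and TP63 (basal cells), COL1A2 (stroma) and PECAM1 (endothelium) had at most 2 reads. Other markers on the same lists were detected, with KRT14 (basal cells) at 0.428 to 3.69 CPM, COL1A1 (stroma) at 6.06 to 16.4 CPM and VWF (endothelium) at 6.61 to 14.7 CPM. Vector control replicate 3 stood apart: over genes, its log2 differences from its group mates had an SD of 0.587, whereas the other libraries had 0.335 to 0.46. Results that turn on it are given with and without it.

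CCNB1, CDK1 and CCND1 were the most abundant members per exonic length of the gene in all 4 groups, and CCND2 was close to absent. In CPM per kilobase of exonic length, CCNB1 stood at 82.6 ± 1.68 after overexpression and 95.4 ± 2.5 in the vector control, and CCND1 at 63.0 ± 0.948 and 64.8 ± 2.28 in the same groups (SD, n = 3 each). CCNA2 and CCNB2 formed a middle tier of 13.4 to 31.6 CPM per kilobase over the group means. CCND3, CCNE1, CCNE2 and CCNF formed a low tier between 3.96 and 9.77. Neighbours in this order whose replicates overlapped were CDK1 and CCND1, CCNA2 and CCNB2, CCNE1 and CCNF, and CCNF and CCND3 in the vector control, CCND1 and CDK1, and CCND3 and CCNF after overexpression, and CCNB2 and CCNA2, and CCND3 and CCNF after depletion. In the shRNA control no neighbours overlapped.

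CCND2, the D-type cyclin that is often silenced in prostate cancer, had no read in 7 of the 12 libraries and at most 5 reads in the others. A count of 0 allows up to 3 reads, 0.0269 to 0.0423 CPM depending on the library. It did not pass the filter on low counts and was not tested, so 9 members were tested, with 1473 (CCNE1) to 29950 (CCND1) reads per library. The level of CCND2 could not be ordered between groups at this depth.

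Depletion of USP22 came with higher mRNA of cyclins E1, A2, B1 and B2 and of CDK1 than in the shRNA control, and with lower CCND3, while CCND1 did not pass the test. The comparison asked how transcripts changed when USP22 was lowered, with doxycycline in both arms. Of the 9 tested members 5 rose and 1 fell, by edgeR's quasi-likelihood test at a Benjamini-Hochberg adjusted p under 0.05, where 19.8% of all 26076 tested genes were called, 9.4% higher and 10.4% lower. The median log2 fold change of the 9 was 0.365, against 2e-04 over all tested genes. Replicates of the groups did not overlap for any of the 9, nor for 41.8% of all tested genes.

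The B-type cyclins had the largest rises among the members. CCNB1, whose protein activates CDK1 at the entry into mitosis, stood at 154.9, 166.9 and 145.8 CPM after depletion, against 96.3, 105.2 and 101.3 CPM in the shRNA control (1.55-fold, log2 fold change 0.63, SE 0.06, edgeR adjusted p = 1.8e-06). CCNB2, its relative known to act at the Golgi, stood at 59.5, 65.9 and 53.2 CPM after depletion, against 35.9, 38.3 and 38.5 CPM in the shRNA control (1.59-fold, edgeR adjusted p = 5.87e-06). CDK1 itself had 169.5, 173.5 and 155.7 CPM after depletion, against 115.2, 128.3 and 113.4 CPM in the shRNA control (1.4-fold, edgeR adjusted p = 0.000456). In all 3 genes every depletion library lay above every shRNA control library, and depletion replicate 2 was the highest and replicate 3 the lowest. CCNF, the substrate receptor of an SCF ubiquitin ligase and not known as a partner of a CDK, had 42.2, 43.4 and 42.1 CPM after depletion against 37.8, 35.2 and 36.7 CPM in the shRNA control, and was not called (log2 fold change of 0.22 with an SE of 0.08, edgeR adjusted p = 0.0649). The CCNF value passed in 7 alternatives, among them the fits without vector control replicate 1 (edgeR adjusted p = 0.0332) and 3 (edgeR adjusted p = 0.000612), and its adjusted p ranged from 0.000612 to 0.118 over all alternatives.

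CCNE1 and CCNA2 rose by smaller factors. CCNE1, the partner of CDK2 at the entry into S phase, had 22.6, 24.5 and 19.3 CPM after depletion, against 17.0, 17.2 and 16.3 CPM in the shRNA control (1.32-fold, edgeR adjusted p = 0.00487). CCNA2, which serves CDK2 in S phase and CDK1 in G2, had 53.6, 57.4 and 50.5 CPM after depletion, against 40.4, 42.4 and 42.6 CPM in the shRNA control (1.29-fold, edgeR adjusted p = 0.00112). The shRNA control libraries were tightly grouped for both genes, and the depletion libraries spread more widely above them. CCNE2, the second E-type cyclin, had 20.5, 20.5 and 19.4 CPM after depletion against 16.9, 17.4 and 17.9 CPM in the shRNA control and was not called (log2 fold change 0.21, SE 0.09, edgeR adjusted p = 0.112), although it passed without vector control replicate 3 (edgeR adjusted p = 0.00284, with a range of 0.00284 to 0.235 over all alternatives). The 6 LNCaP markers summed to 2789 to 3232 CPM after depletion and 4101 to 4295 CPM in the shRNA control, and 3 endothelial markers to 11.95 to 14.67 CPM after depletion and 6.63 to 7.69 CPM in the shRNA control, nearly all VWF, with PECAM1 at 0 in every library. The part of these levels in the rises was not tested.

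Neither tested D-type cyclin rose. CCND3 had 41.05, 42.9 and 39.5 CPM after depletion, against 49.9, 50.6 and 51.7 CPM in the shRNA control (0.811 of control, log2 fold change -0.30, SE 0.07, edgeR adjusted p = 0.0041), with every depletion library below every control. CCND1 had 268.5, 267.9 and 263.1 CPM after depletion and 269.0, 276.4 and 273.9 CPM in the shRNA control. Its log2 fold change of -0.04 was not called (edgeR adjusted p = 0.696), and its 95% interval ran from -0.14 to 0.07.

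**Figure D2:**
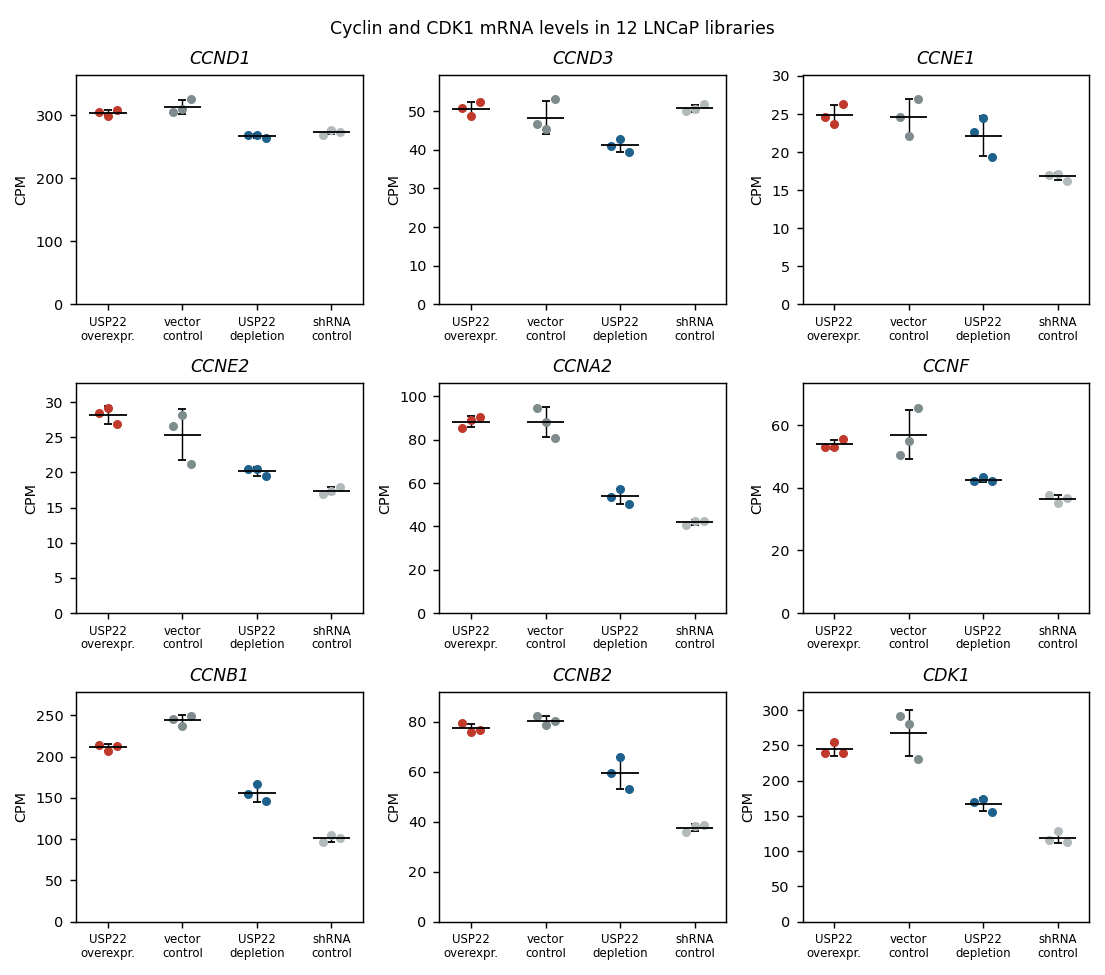
CPM of the 9 tested members (one panel each, y axis from 0) in the 12 libraries; points are libraries, black lines group means and bars SD, with USP22 overexpression, vector control, USP22 depletion and shRNA control left to right. CCNB1, CCNB2, CCNA2 and CDK1 are lowest in the shRNA control, higher after depletion and highest in the 2 groups without an shRNA, while CCND1 lies between 263.1 and 325.3 CPM in every library.

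The shRNA control itself had lower S-phase and mitotic cyclins than the vector control, and CCNB1 stood at 0.413 of the vector control level. Of the 9 tested members 8 were lower in the shRNA control and none higher, where edgeR called 43% of tested genes, 21.3% lower and 21.7% higher. The replicates did not overlap for 8 of the 9, nor for 49.8% of all tested genes, and the median log2 difference was -0.64, against 0.02 over all tested genes. These groups differ in vector, shRNA and doxycycline at once, which cannot be told apart.

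The late members had the largest differences. CCNB1 had 96.3, 105.2 and 101.3 CPM in the shRNA control, against 246.1, 236.9 and 249.1 CPM in the vector control (log2 difference -1.27, SE 0.06, edgeR adjusted p = 2.11e-10). CDK1 stood at 0.445, CCNB2 at 0.467, CCNA2 at 0.475 and CCNF at 0.641 of the vector control level, with edgeR adjusted p from 5e-09 for CCNA2 to 6.37e-06 for CCNF. CCNE1 and CCNE2 stood at 0.685 and 0.686 of that level (edgeR adjusted p = 0.000125 and 9.85e-05). CCND1 was lower by a smaller step, at 0.873 of the vector control (edgeR adjusted p = 0.00403). CCND3 had 49.9, 50.6 and 51.7 CPM in the shRNA control and 46.6, 45.3 and 53.1 CPM in the vector control and was not called (log2 difference 0.07, edgeR adjusted p = 0.425). Without vector control replicate 3, which had the highest CCND3 of its group, CCND3 was called higher in the shRNA control (0.14, edgeR adjusted p = 0.0225). The summed level of 3 basal markers was 3.44 to 3.69 CPM in the shRNA control and 0.564 to 0.646 CPM in the vector control, nearly all of it KRT14, with KRT5 and TP63 at no more than 2 reads. That of 4 stromal markers was 15.2 to 16.3 CPM in the shRNA control and 6.25 to 9.27 CPM in the vector control, nearly all COL1A1, with COL1A2 at no more than 2 reads. That of 6 LNCaP markers was 4101 to 4295 CPM in the shRNA control, above the 3121 to 3553 CPM of the vector control. The part of these levels in the differences of the cyclins was not tested.

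After depletion the late cyclins stood between the controls. This comparison shares its libraries with the others, so the values are set side by side. Of the 9 tested members 8 were lower after depletion than in the vector control and none higher, where edgeR called 34.8% of tested genes, 18.6% lower and 16.2% higher. Replicates did not overlap for those 8, nor for 42.9% of all tested genes. CCNA2 stood at 0.612, CDK1 at 0.621, CCNB1 at 0.639 and CCNB2 at 0.741 of the vector control level, with edgeR adjusted p of 7.75e-07, 6.71e-06, 5.17e-07 and 0.000164. CCNE1 was the member that was not called, at 22.6, 24.5 and 19.3 CPM after depletion and 24.62, 22.11 and 26.95 CPM in the vector control (edgeR adjusted p = 0.228). CCND1 and CCND3 were each 0.852 of the vector control level. The call of CCND3 ended without depletion replicate 1 or 3 (edgeR adjusted p = 0.0626 and 0.0804), that of CCNE2 without depletion replicate 3 (edgeR adjusted p = 0.0567), and with only the 6 libraries compared CCND1, CCND3 and CCNE2 were no longer called. Basal markers summed to 2.68 to 3.21 CPM after depletion and 0.564 to 0.646 CPM in the vector control, and stromal markers to 12.4 to 16.5 CPM after depletion and 6.25 to 9.27 CPM in the vector control, and their part in the result was not tested.

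No member passed edgeR's threshold after overexpression of USP22, where 4.11% of all tested genes were called, 1.51% higher and 2.6% lower. At an unadjusted p under 0.05 there was 1 member, CCNB1, and the share of all tested genes at that level was not computed. DESeq2, which called 1781 genes in this comparison, also called CCNB1, and limma voom did not. CCNB1 had 214.5, 206.5 and 213.1 CPM after overexpression, against 246.1, 236.9 and 249.1 CPM in the vector control. The groups did not overlap, as for 22.4% of tested genes, and CCNB1 was the only such member. The fitted log2 change of CCNB1 was -0.21, with an SE of 0.06 (adjusted p = 0.065 in edgeR and 0.0233 in DESeq2). CDK1 had 238.8, 255.3 and 238.5 CPM after overexpression and 291.3, 280.5 and 231.1 CPM in the vector control (log2 fold change -0.13, edgeR adjusted p = 0.403). The low vector control value was replicate 3, and without that library edgeR called both CDK1 (-0.23, edgeR adjusted p = 0.0122) and CCNB1 (-0.19, edgeR adjusted p = 0.0256) lower after overexpression. With only the libraries compared, CCNB1 was not called (edgeR adjusted p = 0.19). Over all alternatives in edgeR, DESeq2 and limma voom, the adjusted p ranged from 0.0233 to 0.244 for CCNB1 and from 0.0122 to 0.687 for CDK1. For the other 7 tested members the log2 fold changes lay between -0.08 for CCNF and 0.15 for CCNE2, none of them called. Without vector control replicate 3 they lay between -0.06 for CCNB2 and 0.14 for CCND3, with CCNF at 0.03, CCNE2 at 0.04 and CCNA2 at -0.05, and again none was called. With all libraries the 95% interval of CCND1 ran from -0.15 to 0.06 and that of CCNA2 from -0.14 to 0.15.

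**Figure D3:**
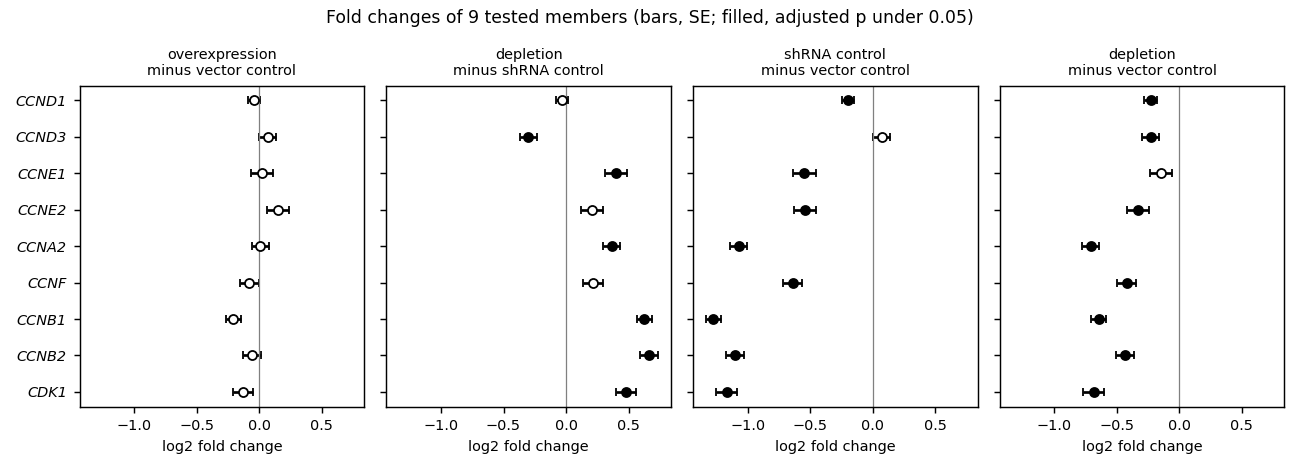
Log2 fold changes of the 9 tested members (x axis, bars SE) in 4 comparisons, with filled points where the edgeR adjusted p is under 0.05. The S, G2 and mitotic members lie left of 0 for the shRNA control against the vector control and right of 0 for depletion against the shRNA control, and every point for overexpression is open.

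The responses to raised and lowered USP22 differed for CCNB1, CCNB2, CDK1, CCNA2 and CCND3. In a contrast of the overexpression effect minus the depletion effect, edgeR called 4 of the 9 tested members lower and 1 higher, where 10.9% of tested genes were called, 5.98% lower and 4.91% higher. The difference was -0.83 for CCNB1 (SE 0.08, edgeR adjusted p = 1.37e-05), -0.72 for CCNB2 (edgeR adjusted p = 0.000237), -0.61 for CDK1 (edgeR adjusted p = 0.00239) and -0.36 for CCNA2 (edgeR adjusted p = 0.0235) on the log2 scale. CCND3 had the opposite sign, at 0.37 (edgeR adjusted p = 0.0185). For CCND1 it was -0.01, with a 95% interval from -0.15 to 0.14. The CCNA2 call ended when any 1 of 7 libraries was left out (vector control replicate 1, overexpression replicate 1 or 2, shRNA control replicate 1 or 3, depletion replicate 1 or 2), with edgeR adjusted p up to 0.0833, and the CCND3 call without overexpression replicate 1 or 3 (edgeR adjusted p = 0.0512 and 0.0616). CCNE1 was not called (-0.38, edgeR adjusted p = 0.0712) but passed without vector control replicate 2 or 3 or depletion replicate 3. With all libraries CCNE1 passed in DESeq2 (DESeq2 adjusted p = 0.0332), and in edgeR with no filter (edgeR adjusted p = 0.0205) or a filter of 1 CPM in 3 libraries (edgeR adjusted p = 0.0471). CCNF (-0.30, edgeR adjusted p = 0.107) passed without vector control replicate 1.

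Within each library, the balance between G1 and mitotic cyclins set the shRNA control apart, and depletion lay between it and the groups without an shRNA. The ratio of CCNB1 to CCND1 per kilobase was 1.33, 1.3 and 1.31 after overexpression, against 1.53, 1.45 and 1.45 in the vector control. After depletion it was 1.09, 1.18 and 1.05, against 0.676, 0.719 and 0.698 in the shRNA control, where the D-type cyclin mRNA exceeded that of CCNB1. A ratio within a library does not depend on how libraries are scaled. The ratio of CDK1 to CCND1 had the same order after depletion (0.766 ± 0.0354) and in the shRNA control (0.535 ± 0.0319), while for overexpression (0.987 ± 0.0533) and the vector control (1.05 ± 0.16) the replicates overlapped (SD, n = 3 each). Ratios among CCNB1, CDK1 and CCNB2 spanned less: that of CCNB1 to CDK1 had group means between 1.31 and 1.44, and that of CCNB2 to CCNB1 between 0.301 and 0.348. The ratio of CCNB1 to CDK1 was 1.66 in vector control replicate 3, against 1.3 and 1.3 in its group mates. That of CCNB2 to CCNB1 was 0.305, 0.303 and 0.295 in the vector control and 0.338, 0.336 and 0.328 after overexpression, with no overlap. CCNF was not in these ratios and changed less than CCNB1 between the controls. Its mean was 9.042 CPM per kilobase in the vector control and 5.795 in the shRNA control, against 95.4 and 39.45 for CCNB1.

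The ratio of CCNA2 to CCNB1 was 0.317, 0.314 and 0.317 after depletion, against 0.384, 0.369 and 0.384 in the shRNA control, and 0.364, 0.395 and 0.388 after overexpression, against 0.352, 0.341 and 0.297 in the vector control. Neither pair of groups overlapped. The ratio of CCND1 to CCND3 was 7.79 ± 0.258 after depletion and 6.46 ± 0.0986 in the shRNA control, and 7.22 ± 0.152 after overexpression and 7.81 ± 0.419 in the vector control (SD, n = 3 each).

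Once CCND2 was left out of the class means of log2 CPM, the mitotic minus G1 difference did not overlap between any of the 4 groups. Overexpression and the vector control nearly touched, at 0 in overexpression replicate 2 and 0.007 in vector control replicate 3. Vector control replicates 1 and 2 had 0.141 and 0.139. With CCND2 in the G1 class, the mean over CCND1, CCND2 and CCND3 swung with the few libraries that held a CCND2 read, and the mitotic minus G1 difference overlapped between groups in every comparison (0.489 for depletion minus shRNA control, -0.226 for overexpression minus vector control). Without CCND2, the G2 and mitotic class (CCNF, CCNB1, CCNB2, CDK1) stood at -0.03 ± 0.033 log2 units relative to the G1 class after overexpression and 0.10 ± 0.077 in the vector control. It stood at -0.22 ± 0.052 after depletion and -0.89 ± 0.027 in the shRNA control (SD, n = 3 each). The S class (CCNE1, CCNE2, CCNA2) stood at -1.65 ± 0.033 relative to the G1 class after overexpression and -1.70 ± 0.152 in the vector control, and at -1.86 ± 0.066 after depletion and -2.35 ± 0.01 in the shRNA control. This S minus G1 difference overlapped between overexpression and the vector control and between depletion and the vector control. The mitotic minus S difference was 0.18 higher after depletion than in the shRNA control and 0.33 lower in the shRNA control than in the vector control, and replicates did not overlap in either. It was 0.18 lower after overexpression than in the vector control, also with no overlap. With the E-type cyclins counted in G1, the difference between the shRNA control and the vector control turned to 0.028. No p is given for these class means, and 3 libraries against 3 cannot go below p = 0.1 in an exact permutation test.

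**Figure D4:**
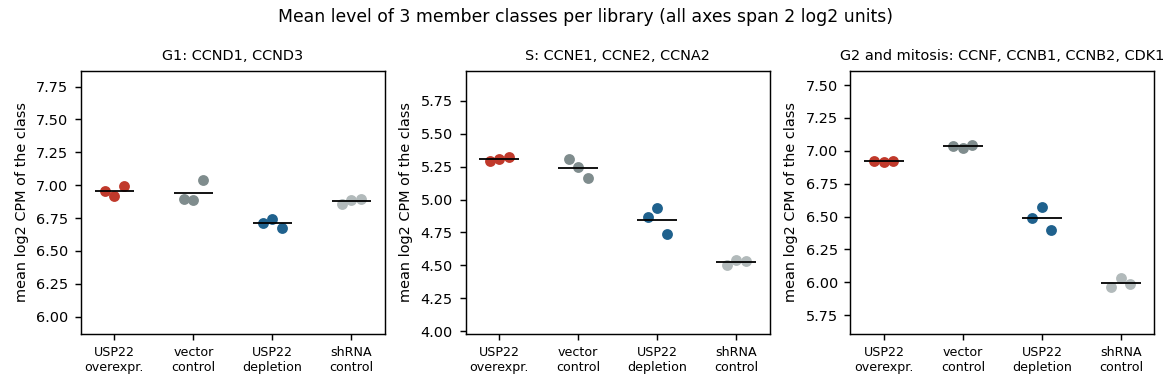
Mean log2 CPM of the G1 (without CCND2), S and G2 and mitotic members in each library; points are libraries, lines group means, and each y axis spans the same range of log2 units. The G1 means lie between 6.67 and 7.04 in all libraries, while the G2 and mitotic means average 6.49 after depletion and 5.99 in the shRNA control.

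Many of the enzymes and adaptors that serve these kinases rose after depletion as well. Among 20 partners and regulators of CDKs, 14 rose and 2 fell after depletion against the shRNA control, where 19.8% of all tested genes were called, and their median log2 fold change was 0.45. CKS2, a small subunit of CDK complexes, had a mean of 78.1 ± 5.38 CPM after depletion and 46.4 ± 1.2 CPM in the shRNA control (log2 fold change 0.75, edgeR adjusted p = 5.98e-05). CDC25C, the phosphatase that activates CDK1, rose by 0.64 (edgeR adjusted p = 0.000151) and CDC20, the mitotic activator of the anaphase-promoting complex, by 0.64 (edgeR adjusted p = 7.84e-05). In the shRNA control 16 of the 20 were lower and 2 higher than in the vector control (43% of all tested genes were called), with CKS2 at -1.15, CDC25C at -1.08 and CDC20 at -1.03 on the log2 scale. After depletion 13 were lower and 2 higher than in the vector control (34.8% of all tested genes were called). WEE1, the kinase that restrains CDK1 (-0.58), and CDC25A (-0.57) were among the lower ones, and CDK6 (1.11) among the higher. CDK6 was also higher in the shRNA control than in the vector control (0.88, edgeR adjusted p = 2.18e-06). For depletion against the shRNA control CDK6 was not called (0.23, edgeR adjusted p = 0.113). After overexpression 1 of the 20 rose and none fell, where 4.11% of all tested genes were called: CDK6, a partner of D-type cyclins, had 9.11 to 9.69 CPM after overexpression and 5.41 to 7.57 CPM in the vector control (0.51, SE 0.10, edgeR adjusted p = 0.00672). Fitting the 6 libraries of this comparison alone removed that call (edgeR adjusted p = 0.109).

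The CDK inhibitors were divided. Of 8, 3 rose and 2 fell after depletion against the shRNA control, where 19.8% of all tested genes were called. CDKN1A, the inhibitor p21, had a mean of 69.2 ± 4.01 CPM after depletion and 122.9 ± 6.21 CPM in the shRNA control (log2 fold change -0.83, edgeR adjusted p = 2.76e-06). CDKN1C, the inhibitor p57, fell by 0.68 (edgeR adjusted p = 0.00196), and CDKN3, a phosphatase that acts on CDKs and is itself a late cell cycle gene, rose by 0.67 (edgeR adjusted p = 0.000416). Against the vector control the shRNA control had 2 inhibitors higher and 3 lower, where 43% of all tested genes were called: CDKN1C averaged 8.84 ± 0.734 CPM in the shRNA control and 1.28 ± 0.211 CPM in the vector control (edgeR adjusted p = 1.24e-09), whereas CDKN1A was lower by 0.63 and CDKN3 by 0.91 on the log2 scale. Depletion against the vector control had 3 higher and 1 lower, where 34.8% of all tested genes were called, with CDKN1C at 2.11, CDKN2B at 0.60 and CDKN1A at -1.45 on the log2 scale. After overexpression edgeR called none of the 8, where 4.11% of all tested genes were called, and DESeq2 and limma voom called none. At an unadjusted p under 0.05 edgeR had 1, and the share of all tested genes at that level was not computed.

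Of 18 genes of the RB, E2F and MuvB machinery, 10 rose and 2 fell after depletion against the shRNA control (median 0.30), where 19.8% of all tested genes were called. LIN9, a MuvB subunit, rose by 0.65 (edgeR adjusted p = 1.92e-05), FOXM1, a factor of late cell cycle transcription, by 0.63 (edgeR adjusted p = 8.86e-06) and E2F7, a repressor of E2F targets, by 0.54 (edgeR adjusted p = 2.18e-05). In the shRNA control 12 were lower and 2 higher than in the vector control (43% of all tested genes were called), with E2F2 at -1.07, E2F8 at -1.06 and FOXM1 at -1.04. After depletion 11 were lower and 1 higher than in the vector control (34.8% of all tested genes were called), with E2F1 at -0.57, MYBL2 at -0.56 and E2F2 at -0.55. After overexpression edgeR called none, where 4.11% of all tested genes were called, and limma voom called none. DESeq2, which called 1781 genes in this comparison, called 1 of the 18 higher and 1 lower. At an unadjusted p under 0.05 edgeR had 5, and the share of all tested genes at that level was not computed.

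Of 16 cyclins outside the core cycle 15 were tested, and 2 rose and none fell after depletion against the shRNA control, a share near that of all tested genes (9.4% higher and 10.4% lower): CCNH, the cyclin of the CDK-activating kinase (0.31, edgeR adjusted p = 0.000532), and CCNB3, a meiotic B-type cyclin at a mean of 5.03 CPM after depletion and 4.05 CPM in the shRNA control (0.31, edgeR adjusted p = 0.0294). The CCNB3 call ended without shRNA control replicate 1 or 3 or without depletion replicate 1 or 2, with edgeR adjusted p up to 0.104. Their median was 0.01, against 0.365 for the 9 members. In the shRNA control 6 were lower and 1 higher than in the vector control, in all a share near the 43% of all tested genes called. Those called included CCNG2 at -1.11, CCNH at -0.60 and CNTD1 at -0.46. The CNTD1 call ended without vector control replicate 1 or 2 or shRNA control replicate 2 (edgeR adjusted p up to 0.0984). Against the vector control 4 were lower and 1 higher after depletion, a share near the 34.8% of all tested genes called. Those called included CCNG2 at -1.29, CCNB3 at 0.68 and CCNI at -0.39. After overexpression edgeR called none of the 15, where 4.11% of all tested genes were called, and neither DESeq2 nor limma voom called any. At an unadjusted p under 0.05 edgeR had 2, and the share of all tested genes at that level was not computed.

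**Figure D5:**
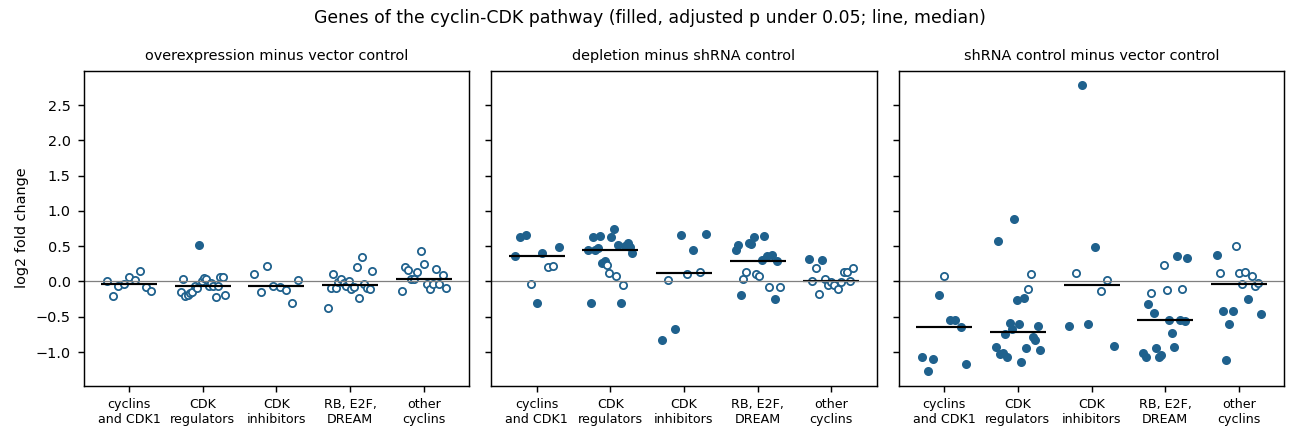
Log2 fold changes (y axis) of the 9 tested members and of 4 groups of related genes in 3 comparisons; points are genes, filled where the edgeR adjusted p is under 0.05, and lines are medians. On depletion the medians are 0.365 for the members and 0.452 for the CDK regulators, against 0.01 for the other cyclins.

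Across the 12 libraries, the genes whose centred log2 CPM lay closest to that of CDK1 were ZNF367, SLAIN1, TMEM97 and CENPU, with root mean square differences of 0.0562 to 0.0815 log2 units. Genes with a mean under 5 CPM, without a symbol or with a clone name were left out. Among the members, CCNA2 (0.0868), CCNB1 (0.111) and CCNB2 (0.13) were the closest to CDK1. CCNF (0.268) lay farther from CDK1 than CCNE2 (0.233), and CCND3 (0.49) was the farthest member. For CCND1 the closest were THRAP3, PREP, NFX1 and TMEM43, at 0.0287 to 0.0343, and the nearest member was CCND3 at 0.118. Libraries of 1 group share their condition, so these values describe likeness of pattern and carry no test.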

How the data were processed

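RNA was measured by sequencing of stranded total RNA libraries in 12 LNCaP libraries, 3 in each of 4 groups, grouped by the labels. The deposited values are raw read counts per Ensembl gene ID, made by the authors from reads aligned to hg19; STAR 2.5.2a, featureCounts 1.5.0-p3 and DESeq2 1.14.1 are named per the submitters' processing notes. No source used here gives the strand setting or the annotation release.

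Counts were filtered with edgeR's filterByExpr (26076 of 63677 IDs kept), scaled by TMM and tested with edgeR 4.0.16 quasi-likelihood fits in R 4.3.3 over all 12 libraries, with Benjamini-Hochberg adjustment over all tested genes at 0.05. CPM used the TMM-scaled library sizes. Totals were 77607469 to 103690001 counts, and floors cover counting error only. Replicates of a group spread more than counting error, with a chi-square per degree of freedom of 6.547 to 119.4 between 2 libraries. CPM per kilobase used exonic lengths from GENCODE (GRCh38), which may differ from the hg19 models. Each length covers all annotated exons of a gene and can exceed that of a single transcript. Promoter sequences are from RefSeq (GRCh38.p14). The steps were tested on simulated data.

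Besides the members, the text names USP22, the 3 called genes with the largest fold change in each comparison and related list, and the 4 genes most like CDK1 and CCND1 in pattern. Some LNCaP markers are not reported here. The members and lists were chosen with earlier results of these data known. Alternatives were other scalings, filters, tools (DESeq2 1.42.0, limma 3.58.1 voom), thresholds, a replicate block and leaving out each library.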

Additional observations from a re-analysis of the deposited data

Results flagged for a closer look

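A test of the overexpression effect minus the depletion effect passed for 5 members, and each is given here because its effects in the 2 arms differed by that test (edgeR, adjusted over all tested genes). On the log2 scale the difference was -0.834 for CCNB1, -0.722 for CCNB2, -0.615 for CDK1, -0.359 for CCNA2 and 0.37 for CCND3. The overexpression and depletion effects behind them were -0.21 and 0.63 for CCNB1, -0.06 and 0.67 for CCNB2, -0.13 and 0.48 for CDK1, 0.01 and 0.37 for CCNA2, and 0.07 and -0.30 for CCND3. The depletion effect was measured against a shRNA control in which 4 of these genes were lower than in the vector control, and the part of that difference in the result was not tested.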

How the results depend on the processing

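No called value of a member changed sign under the alternatives run. Values that were not called turned sign in 12 cases over 6 results, each with a size of at most 0.079 on the log2 scale in the fit reported. In overexpression against vector control, edgeR called 1072 genes, and the count was 2062 with no filter, 327 with only the libraries compared, 1781 with DESeq2, 469 at an adjusted p under 0.01, 428 with a fold of at least 1.5, and 501 to 1842 without 1 library (1842 without vector control replicate 3). Members called lower were 1 with DESeq2 and 0 to 2 without 1 library, 2 of them without vector control replicate 3. In depletion against shRNA control (5172 genes) the count was 8115 with only the libraries compared, 3053 at 0.01, 1816 with the fold, and 3523 to 8359 without 1 library, highest without vector control replicate 3; with the fold, 2 members were higher and 0 lower. In shRNA control against vector control (11211 genes) the fold left 5903 genes and 5 members lower, and 0 to 1 members were higher without 1 library. In depletion against vector control (9081 genes) the fold left 4099 genes and 3 members lower, and only the libraries compared left 5. For the difference of effects (2840 genes) the count was 1359 at 0.01, 1372 with the fold and 1909 to 5320 without 1 library; members higher were 0 at 0.01, 0 with the fold and 0 to 1 without 1 library. Thresholds and folds lower counts by construction, and otherwise the cause was not tested. With cyclin E counted as G1, the mitotic minus S difference was -0.124 for overexpression and 0.134 for depletion against their controls, and turned to 0.028 for shRNA control and 0.161 for depletion against vector control; summed CPM gave -0.094 for the last. Same-numbered replicates correlated at -0.022 to 0.083 over all genes, and 3 of 6 correlated best with their own number. The numbers thus showed no strong pairing, and a weak one is not excluded. With the replicate block, genes called were 1098, 5272, 11308, 9265 and 2959 in the order above, and members called were 0, then 5 higher and 1 lower, 8 lower, 8 lower, and 1 higher and 4 lower. Depth limits CCND2 alone among the members.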
